A study of Mus musculus with 2 samples.

Results

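Cells that carried both keratin and C1q transcripts made up 189 of the 21985 cells that passed the filter in single-cell RNA sequencing of EMT6 tumors, out of 23657 cells deposited. They were chosen by their own counts. A cell had at least 200 genes and under 20% mitochondrial UMIs, at least 5 UMIs of Krt8 and Krt18 together, and at least 3 UMIs of C1qa, C1qb and C1qc together that came to at least 0.05% of its UMIs. A UMI (unique molecular identifier) marks 1 captured transcript. Cells with the keratin UMIs that missed the C1q rule are called keratin cells here (10838 cells), and cells with C1q at 0.2% or more of their UMIs and at most 2 keratin UMIs are called C1q cells (825 cells). Since the 5 genes chose the cells, their levels are given as a description.

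EMT6 is a mouse mammary tumor line, grown here under the skin of immunocompetent BALB/c mice. Each group gave 1 library, which combined the tumors of 3 mice, and necrotic or ulcerated tumors were not used. Red cells were lysed and dead cells were removed before the cells were loaded. All mice received LLY-283, an inhibitor of the arginine methyltransferase PRMT5, at 50 mg/kg for 3 days on and 4 days off, and Olaparib, a PARP inhibitor, at 50 mg/kg daily. The Combo group also received 200 µg of an antibody to PD-1 once in 3 days, and the other group is called Olaparib + LLY-283. With 1 library per group no test was possible. The intervals given are exact 95% intervals (Poisson for CPM, Clopper-Pearson for shares, order statistics for medians) and cover counting error only, and group, pool of mice and library cannot be told apart.

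Keratins 8 and 18 pair to form the intermediate filaments of simple epithelia and of carcinoma cells. C1qa, C1qb and C1qc encode the chains of complement C1q, which in tissues is made chiefly by macrophages. A droplet can show both kinds of transcript when it holds a tumor cell and a macrophage, when a macrophage has taken up tumor material, or when RNA freed from broken cells is captured with an intact cell.

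The libraries stood apart in depth. In Olaparib + LLY-283, 16115 cells with 147214934 UMIs were deposited, and the 16029 cells that passed had a median of 7414 UMIs. In Combo they were 7542 cells with 162522700 UMIs, 1582 cells were left out for mitochondrial UMIs, and the 5956 cells that passed had a median of 14413.5 UMIs. None of the cells left out for mitochondrial UMIs met the keratin and C1q rule in either library. The libraries shared 39 cell barcodes, and no barcode was that of a double-positive cell in both.

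Double-positive cells came to 143 of 16029 cells in Olaparib + LLY-283, a share of 0.892% (95% interval 0.752 to 1.05). In Combo they were 46 of 5956 cells, or 0.772% (0.566 to 1.03). The intervals overlapped, but the comparison rested on the limits and the doublet calls. With keratin also at 0.05% of UMIs or more the shares were 0.730% (0.604 to 0.874) and 0.235% (0.129 to 0.394), and without the cells that the doublet caller Scrublet called they were 0.0732% and 0.711%, in the opposite order. Scrublet was run on log-transformed counts, since its default called 0 cells in both libraries. Its limit was a score of 0.2 in Olaparib + LLY-283 and 0.287 in Combo. In Combo the double-positive cells had a median score of 0.206, so that fewer of them would remain at the limit of the other library. With C1q at 0.1% of UMIs or more the shares were 0.549% and 0.705%, again in the opposite order. Of all cells with at least 5 keratin UMIs they made up 1.73% and 1.65%. There were 25.7 double-positive cells per 100 C1q cells in Olaparib + LLY-283 and 17.1 in Combo.

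Krt8 (chr15:101996698-102004482, minus strand, mm10) and Krt18 (chr15:102028180-102032027, plus strand) were compared with the level of the keratin cells. Krt8 was at 748 CPM (711 to 786) in the double-positive cells of Olaparib + LLY-283 and at 920 CPM in the keratin cells. In Combo it was at 485 CPM (456 to 514) against 800 CPM. Krt18 was at 108 CPM (94.2 to 123) against 119 CPM in Olaparib + LLY-283, where the interval held the level of the keratin cells, and at 46.8 CPM (38.2 to 56.7) against 79.8 CPM in Combo. These genes chose the cells, and 5 UMIs are a smaller share of the deeper Combo cells, so nothing is read from the difference between libraries. In double-positive cells with keratin at 0.05% of UMIs or more, keratins took 0.105% of UMIs in Olaparib + LLY-283 and 0.0908% in Combo. In all keratin cells they took 0.104% and 0.0880%. Per cell, keratin UMIs ran from 5 to 46 with a median of 10 in Olaparib + LLY-283, and from 5 to 104 with a median of 14 in Combo.

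The C1q genes lie side by side on the minus strand of chromosome 4 (C1qa chr4:136895917-136898803, C1qb chr4:136880129-136886187, C1qc chr4:136889804-136893065). C1qa, the A chain, was at 777 CPM (740 to 816) in Olaparib + LLY-283 against 4074 CPM in the C1q cells. In Combo it was at 1886 CPM (1829 to 1944) against 4278 CPM. The level in double-positive cells lay between both kinds of cell, with keratin cells at 10.9 and 15.0 CPM. C1qa took 44.6% of the C1q UMIs of double-positive cells in Olaparib + LLY-283 and 46.5% in Combo, against 46.0% and 46.1% in the C1q cells. Per cell, C1q UMIs had a median of 19 (3 to 140) in Olaparib + LLY-283 and of 177.5 (11 to 729) in Combo.

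Transcripts of both kinds were also counted in cells of other lists, which are not known to make them. In T and NK-list cells (31 and 37 cells with at least 0.2% of UMIs from the list), keratins took 0.0268% of UMIs in Olaparib + LLY-283 and 0.0126% in Combo, with median depths of 1040 and 3929 UMIs, and 0 of them had 5 keratin UMIs. In endothelial-list cells (26 and 12 cells) they took 0.0259% and 0.00921%. In neutrophil-list cells (1140 and 1505 cells) they took 0.0779% and 0.0485%, and 16.8% and 3.72% of those cells had 5 or more keratin UMIs. In the double-positive cells the keratin share was 0.0856% and 0.0531%. In muscle-list cells (53 and 60 cells) they took 0.0707% and 0.0370%. The share in double-positive cells is bounded below by the rule, and cells of the other lists with 5 or more keratin UMIs stayed in their sums, so these values are given side by side only.

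C1q took 0.174% and 0.405% of the UMIs of the double-positive cells and 0.00259% and 0.00342% of those of the keratin cells. It was at 0.00268% and 0.00262% in the T and NK-list cells, on 1 and 5 UMIs, at 0.00353% and 0.00690% in the endothelial list, at 0.0134% and 0.0246% in the neutrophil list and at 0.0193% and 0.00616% in the muscle list. All these shares were below that of the double-positive cells, whose C1q share was set by the rule. A C1q UMI was seen in 26.5% of keratin cells in Olaparib + LLY-283, at a median depth of 11599.5 UMIs, and in 78.0% in Combo, at 49344 UMIs. Most of these cells had a C1q share under 0.025%.

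Counted in steps that each double the C1q share, the cells with keratin formed a shoulder in Olaparib + LLY-283 and a separate rise in Combo. In Olaparib + LLY-283, 5954 had no C1q UMI, and the number fell from 977 at 0.00625 to 0.0125% to 385 and 70 in the next steps up to 0.05%. Above the limit it was 57, 41, 33, 10 and 4. No gap separated the double-positive cells from the keratin cells there. In Combo the number fell from 890 at 0.003125 to 0.00625% to 345, 38 and 11 below the limit and to 4 just above it, and was then 11, 11, 13 and 7. The cells just inside the limit had C1q at 0.0510% and 0.0504% of UMIs, and those just outside at 0.0498% and 0.04995%. At the keratin limit, 16 and 7 double-positive cells had exactly 5 keratin UMIs, and 50 and 48 cells met the C1q rule with 3 or 4.

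**Figure D1:**
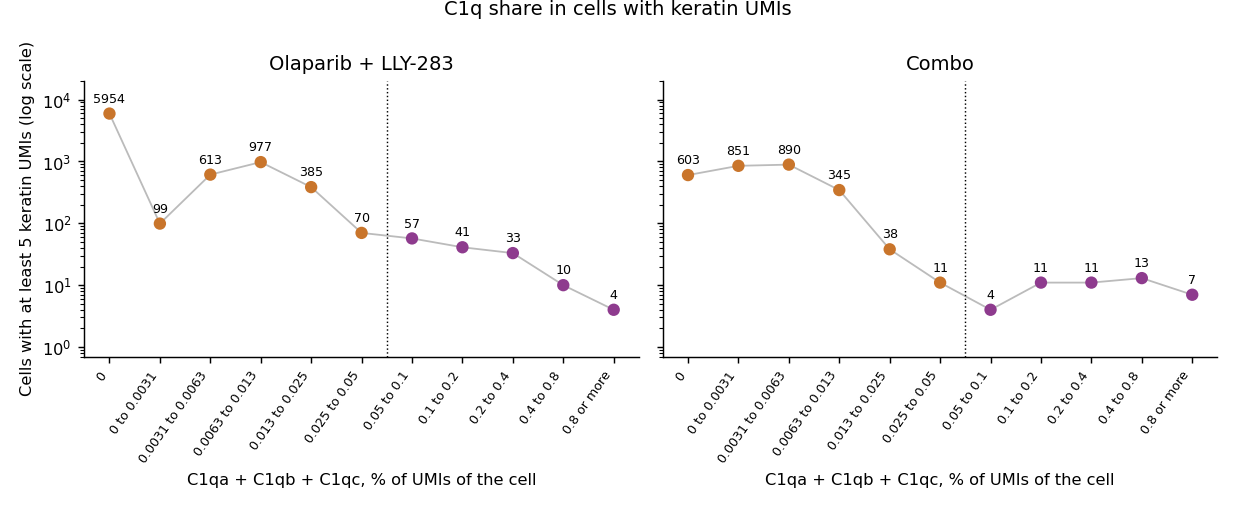
Number of cells with at least 5 keratin UMIs (log axis) in steps of the share of their UMIs from C1qa, C1qb and C1qc, in each library. Orange points are steps below the limit of 0.05% (dotted line) and purple points steps above it, where 2 cells of Olaparib + LLY-283 had under 3 C1q UMIs and were not counted as double-positive; the counts go from 70 to 57 across the limit in Olaparib + LLY-283, and in Combo from 11 to 4 and then 11 again.

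Keratin UMIs were also counted in all cells rich in C1q. Of 630 cells in Olaparib + LLY-283 with C1q at 0.2% of UMIs or more, 370 had no keratin UMI, 186 had 1 or 2, 27 had 3 or 4, 27 had 5 to 9 and 20 had 10 or more. Their median depth was 2042.5 UMIs where no keratin was seen and 18442.5 UMIs where it reached 10. In Combo, 103 of 343 such cells had no keratin UMI, 166 had 1 or 2, 43 had 3 or 4, 16 had 5 to 9 and 15 had 10 or more, with median depths from 10780 to 59722 UMIs. Depth thus moved with the keratin count in both libraries. With every cell of at least 3000 UMIs thinned to that depth, 21.3 of 12610 cells in Olaparib + LLY-283 and 2.3 of 3853 in Combo met the rule, as the mean of 20 draws.

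The median depth of the double-positive cells was close to that of keratin cells and below that of a keratin cell and a C1q cell added together. In Combo the latter rested on the cells of low keratin share. The former pooled unlike cells there. Their medians were 63020.5 UMIs at keratin of 0.05% of UMIs or more (14 cells) and 36906 UMIs below that share (32 cells). In Olaparib + LLY-283 they had a median of 11879 UMIs (10517 to 13100), with the lowest at 3553 and the highest at 48669. Keratin cells had a median of 11599.5 and C1q cells of 2291 UMIs. In Combo the median was 46659 UMIs (32636 to 55858), from 13175 to 105888, against 49344 and 12268. The ranges of double-positive and keratin cells overlapped almost throughout, and 68 of 143 and 24 of 46 double-positive cells lay below the median of the keratin cells.

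Over all possible pairs of 1 keratin cell and 1 C1q cell of the same library, the sum had a median of 14270 UMIs in Olaparib + LLY-283 and 62050 in Combo. The median of the double-positive cells was 0.832 times that sum in Olaparib + LLY-283 (0.737 to 0.918) and 0.752 times in Combo (0.526 to 0.900). With keratin at 0.05% of UMIs or more it was 1.01 times in Combo (0.631 to 1.17) and 0.771 times in Olaparib + LLY-283. Of the summed pairs, 77.7% and 79.2% would have met the rule, and these had medians of 13539 and 62289 UMIs. The double-positive cells were 5.19 and 3.80 times as deep as the C1q cells. The depth of a real pair in 1 droplet need not be the sum of its members, and this was not tested.

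**Figure D2:**
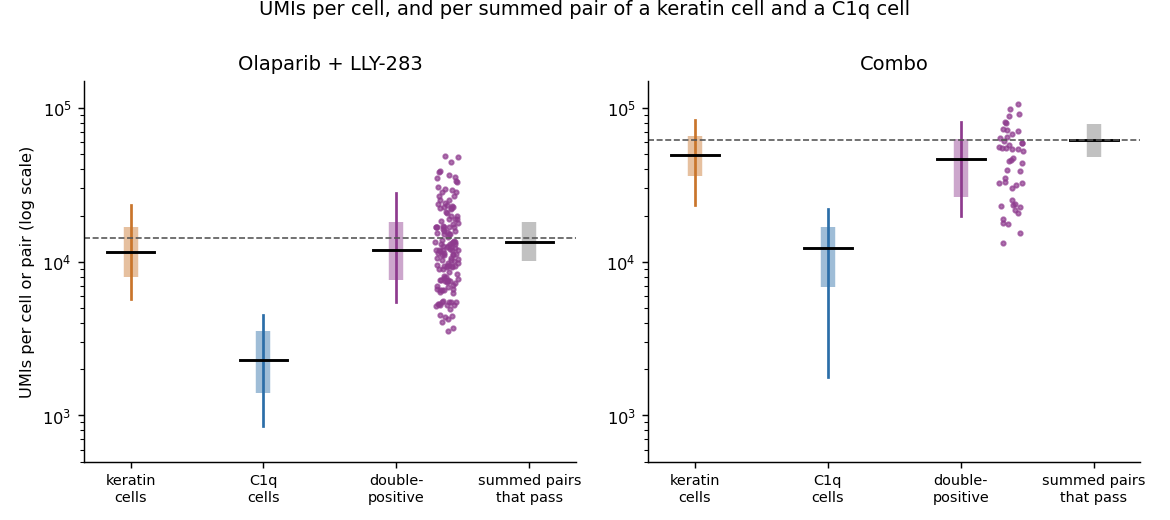
UMIs per cell (log axis) of keratin cells, C1q cells and double-positive cells in each library, and of summed pairs that meet the rule. Black lines are medians, thick bars the middle 50%, thin lines the 10th to 90th percentiles, purple points single double-positive cells and the dashed line the median over all pairs; the medians of the double-positive cells lie beside those of the keratin cells and below the dashed line.

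For each cell a macrophage part was fitted, the weight of the C1q-cell profile in a mix with the keratin-cell profile of the same library. The fit used 540 genes in Olaparib + LLY-283 and 740 in Combo that differed over 4-fold between both profiles, and left out the 5 genes of the rule. In Olaparib + LLY-283 the macrophage part had a median of 17.3% (13.9 to 18.9), with the lowest cell at 0% and the highest at 99.4%. Keratin cells had a median of 0% and C1q cells of 100%. Of the 143 cells, 40 were under 10%, 98 between 10 and 50%, 4 between 50 and 90% and 1 at 90% or more. The middle 50% of the cells ran from 9 to 26.7%. In the summed pairs that met the rule C1q cells held 19.3% of the UMIs at the median. This is a share of UMIs and no fitted weight, so both values are given side by side only.

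In Combo the macrophage part had a median of 37.1% (21.6 to 80.2) and fell into separate ranges. Of the 46 cells, 4 were under 10%, 24 between 10 and 50%, 3 between 50 and 90% and 15 at 90% or more. The summed pairs had a median of 22.4%, again as a share of UMIs. The 24 cells between 10 and 50% had a median of 58250 UMIs and 29.5 keratin UMIs. The 15 cells at 90% or more had a median of 23334 UMIs and 6 keratin UMIs, and their keratin share was 0.0219%. That share was 2.92 times the 0.00750% of a mix with their macrophage part, and it may be set beside the 0.0187% of the 43 C1q-rich cells with 3 or 4 keratin UMIs. Because 5 keratin UMIs were the entry to the group, a keratin share above the mix is partly fixed by the rule.

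Across the double-positive cells of Combo, depth and macrophage part ran opposite ways (Pearson correlation -0.73, Spearman correlation -0.72, 46 cells), and so did keratin share and macrophage part (-0.49 and -0.55). In Olaparib + LLY-283 the same values were -0.22 and -0.13 for depth and -0.04 and -0.02 for the keratin share, over 143 cells. These cells share a library, so the values are descriptions. With keratin also set at 0.05% of UMIs or more, 117 of 143 cells remained in Olaparib + LLY-283 and 14 of 46 in Combo, and the share of all cells in Combo was 0.235%. The median macrophage part of those 14 cells was 19.45%.

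**Figure D3:**
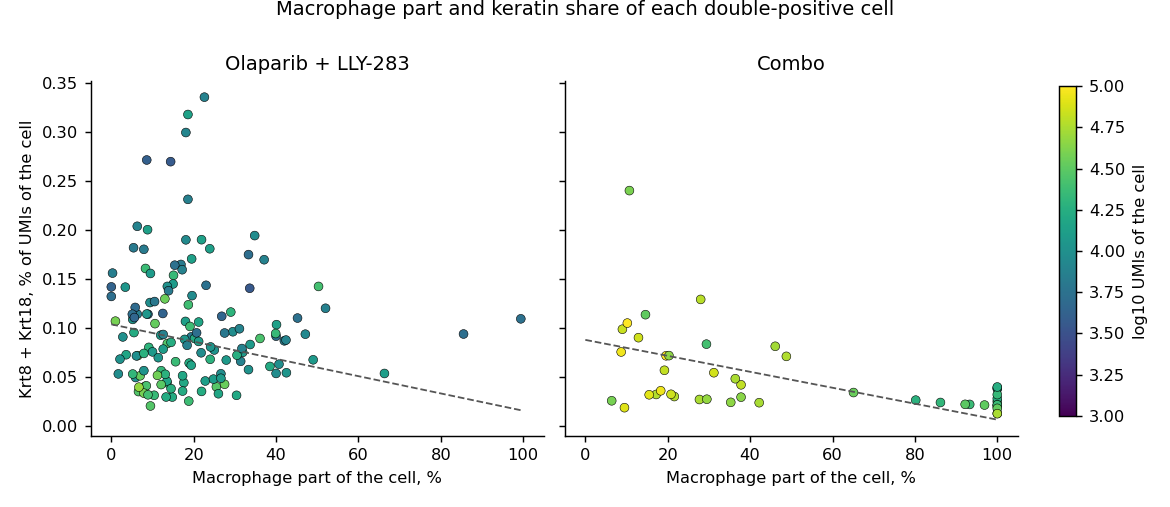
Each point is 1 double-positive cell, with its macrophage part (%) on the horizontal axis, the share of its UMIs from Krt8 and Krt18 (%) on the vertical axis and its depth as color. The dashed line is the keratin share of a mix of keratin cells and C1q cells; 138 of 143 cells lie below 50% in Olaparib + LLY-283, while 15 of 46 lie at 90% or more in Combo.

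The summed profile of the double-positive cells was close to a mix of both profiles. For the sum of the cells the fitted macrophage part was 18% in Olaparib + LLY-283 and 40.7% in Combo. Among genes with at least 100 observed or expected UMIs, the correlation across genes of log2 CPM with the mix was 0.993 in Olaparib + LLY-283, against 0.893 with the keratin cells and 0.842 with the C1q cells. In Combo it was 0.986 against 0.745 and 0.853. Genes are not independent replicates. In Olaparib + LLY-283, 3 of 3199 genes (0.0938%) were over 2-fold above the mix and 0 (0%) over 2-fold below it, where 111 genes were over 2-fold from the keratin cells and 690 from the C1q cells. In Combo, 7 of 3595 genes (0.195%) were above and 6 (0.167%) below, where 371 and 630 were over 2-fold from the keratin cells and the C1q cells. Of the 3065 genes that reached 100 UMIs in both libraries, 0 were over 2-fold from the mix in both. One weight was fitted per library, so the sum over separating genes is near the mix by construction, while the level of each gene is not. The sum also cannot tell cells that each hold both profiles from a pool of cells that each hold 1. In Combo 15 of 46 cells had a macrophage part of 90% or more, and only 3 lay at 40 to 60%, around the fitted 40.7%.

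The tumor list of 20 genes, most of them epithelial, was at 1952 CPM in Olaparib + LLY-283 against 1956 CPM in the mix, and at 1158 against 1247 CPM in Combo. Of its members that reached 100 UMIs, 0 of 5 and 0 of 6 were over 2-fold from the mix, near the share of all genes (3 of 3199 and 13 of 3595). Wfdc2, a secreted protease inhibitor, was at 727 CPM (691 to 765) against 801 CPM in the mix of Olaparib + LLY-283, and at 520 CPM (491 to 551) against 537 CPM in Combo. Lgals7, a galectin of stratified epithelia, was at 609 against 583 CPM and at 316 against 335 CPM. Areg, a ligand of the EGF receptor, was at 324 against 291 CPM and at 134 against 139 CPM. Sfn, the epithelial 14-3-3 protein, was at 147 against 148 CPM and at 71.9 against 93.5 CPM. Epcam, an epithelial adhesion molecule, had a UMI in 3.50% and 4.35% of the double-positive cells, against 4.28% and 13.1% of the keratin cells. Not every member marked the keratin cells. Emb, an adhesion glycoprotein, was at 2.37 and 3.24 CPM in keratin cells and at 140 and 153 CPM in C1q cells. Cldn4, Cldn6, Krt20 and Ly6d were at 0 in double-positive cells of both libraries. The epithelial side of these cells thus rested on few genes besides the keratins, as in the keratin cells.

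The macrophage list stood at 6556 CPM in Olaparib + LLY-283 against 6875 CPM in the mix, 328 CPM in keratin cells and 37166 CPM in C1q cells. In Combo it was at 13922 CPM against 15584 CPM in the mix. All 20 genes had UMIs in both libraries, and 0 of the 16 and 0 of the 20 that reached 100 UMIs were over 2-fold from the mix. Among all genes it was 3 of 3199 and 13 of 3595, so these counts are near the general share. Genes of this list that lay over 4-fold apart between both profiles also helped to set the fitted weight. Its closeness to the mix is therefore partly fixed by the fit, as for the tumor and pan-leukocyte lists. Lyz2, the lysozyme of phagocytes, was at 2403 CPM (2337 to 2470) against 2425 CPM in the mix of Olaparib + LLY-283, and at 5444 CPM (5348 to 5542) against 6039 CPM in Combo. Apoe, a lipid carrier, was at 1090 against 1236 CPM and at 1340 against 1868 CPM. Fcer1g, the signaling chain of Fc receptors, was at 482 against 488 CPM and at 1109 against 1145 CPM. Ctss, a lysosomal protease, was at 405 against 377 CPM and at 811 against 929 CPM. The tumor and macrophage lists both had at least 3 UMIs in 140 of 143 double-positive cells of Olaparib + LLY-283 (97.9%), against 55.6% of keratin cells and 18.5% of C1q cells. In the deeper Combo library they did so in 44 of 46 (95.7%), below the 98.2% of keratin cells.

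Genes of all white blood cells moved with the macrophage genes. The pan-leukocyte list was at 729 CPM against 732 CPM in the mix of Olaparib + LLY-283 and at 1734 against 1895 CPM in Combo. Cd52, a surface glycopeptide of leukocytes, was at 218 against 192 CPM and at 413 against 481 CPM. Lcp1, an actin-bundling protein, was at 113 against 126 CPM and at 320 against 342 CPM. Ptprc, the CD45 phosphatase, had a UMI in 46.9% of double-positive cells in Olaparib + LLY-283 and 93.5% in Combo. After each cell of at least 3000 UMIs was thinned to that depth, the share was 16.2% and 34.4%, against 1.04% and 1.38% of keratin cells and 46.9% and 63.5% of C1q cells, of which 180 and 236 were deep enough. Csf1r, the receptor of the macrophage growth factor, gave 23.8% and 45.2% after thinning, against 2.04% and 1.97% of keratin cells and 61.0% and 72.8% of C1q cells. Unthinned, Csf1r was seen in 58.7% and 100% of the double-positive cells. Both genes were thus seen in more of the double-positive cells than of the keratin cells at equal depth, and in fewer than of the C1q cells.

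The summed levels of genes of engulfment and digestion were near the mix. The phagocytosis list was at 1670 CPM against 1685 CPM in the mix of Olaparib + LLY-283 and at 2196 against 2124 CPM in Combo. In each library 0 of 8 tested genes were over 2-fold from the mix. This is near the share of all genes, 3 of 3199 and 13 of 3595, and is no result about the list. Msr1, a scavenger receptor of macrophages, was at 103 against 102 CPM and at 268 against 270 CPM. Lrp1, a receptor for apoptotic cells and lipoproteins, was at 277 against 248 CPM and at 363 against 327 CPM. Anxa1 was at 621 against 667 CPM and at 616 against 605 CPM, and Stab2 was at 0 in both libraries. The lysosome list was at 8264 against 8000 CPM in Olaparib + LLY-283 and at 11740 against 10485 CPM in Combo. Over 2-fold from the mix were 0 of 14 and 0 of 16 tested genes, again near the share of all genes. Ctsd, the main aspartic protease of lysosomes, was at 623 against 582 CPM and at 1564 against 1114 CPM. Ctsb, a cysteine protease of the same organelle, was at 913 against 864 CPM and at 1910 against 1553 CPM. Levels of these proteases in Combo stood up to 1.40 times the mix.

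The macrophage states list was at 4930 CPM against 5075 CPM in the mix of Olaparib + LLY-283, or 0.971 times the mix, and at 5105 against 6966 CPM in Combo, or 0.733 times the mix. Spp1, the secreted protein osteopontin, was at 3568 against 3803 CPM in Olaparib + LLY-283 and at 3165 CPM (3091 to 3240) against 4777 CPM in Combo. Ccl8, a chemokine, was at 439 against 358 CPM and at 296 against 450 CPM. Of 10 tested genes 1 was over 2-fold above the mix in Olaparib + LLY-283, where 0.0938% of all genes were. It was Cxcl9, with 90.8% of its UMIs in 5 cells. In Combo 2 of 14 were above, where 0.195% of all genes were, and 1 below, where 0.167% were. Those above were Retnla, seen in 1 cell, and Gas6, a ligand of the TAM receptors, at 120.5 against 59.1 CPM in 27 cells, and the gene below was Cxcl10.

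MHC class II genes stood above the mix in Olaparib + LLY-283. The list was at 543 CPM (511 to 575) against 345 CPM in the mix, a ratio of 1.57, and at 896 CPM (857 to 936) against 881 CPM in Combo. Cd74, the invariant chain, was at 292 against 192 CPM in Olaparib + LLY-283 and at 519 against 478 CPM in Combo. H2-Aa, an alpha chain, was at 81.0 CPM (69.2 to 94.2) against 37.4 CPM and at 96.7 against 96.8 CPM. H2-Eb1, a beta chain, was at 53.7 against 29.3 CPM and at 111 against 78.1 CPM. In Olaparib + LLY-283 the H2-Aa UMIs came from 32 of 143 cells, and 5 cells held 63.9% of them. Of the genes that define dendritic cells, Xcr1, Clec9a and Siglech were at 0 in both libraries, and Flt3 and Cd209a at 0 in Olaparib + LLY-283. Itgax, an integrin of dendritic cells and macrophages, was above the mix in Olaparib + LLY-283, at 7.67 CPM (4.38 to 12.5) against 1.70 CPM on 16 UMIs, and at 4.50 against 7.66 CPM in Combo. The whole dendritic list was at 2171 against 2006 CPM and at 1954 against 2078 CPM, with Cst3 its highest gene at 2014 and 1827 CPM. Their part in the MHC class II level was not tested.

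Interferon genes were at 1433 against 1411 CPM in the mix of Olaparib + LLY-283 and at 1601 against 1770 CPM in Combo, with 0 of 6 and 1 of 10 tested genes over 2-fold from the mix. The 1 gene, Rsad2, lay below it in Combo, where 0.167% of all genes did. Bst2, an antiviral membrane protein, was at 414 against 382 CPM and at 355 against 328 CPM. Isg15, a ubiquitin-like protein, was at 214 against 234 CPM and at 192 against 216 CPM. Cell cycle genes were counted in lists of G2/M and S phase. The G2/M list was at 1730 against 1843 CPM in Olaparib + LLY-283 and at 1716 against 1476 CPM in Combo, where keratin cells had 2090 and 1988 CPM and C1q cells 739 and 740 CPM. By macrophage part it was at 1808 CPM under 10%, 1641.5 CPM at 10 to 50% and 2935 CPM at 50% or more in Olaparib + LLY-283 (40, 98 and 5 cells). In Combo it was at 3797, 1639 and 768 CPM in the same ranges (4, 24 and 18 cells). The list thus fell from the first range to the second in both libraries, but in Combo the first range held 4 cells. Its rise in Olaparib + LLY-283 rested on 5 cells. Top2a, the topoisomerase of dividing cells, was at 175 against 177 CPM and at 218 against 163 CPM. The S phase list was at 920 against 1006 CPM and at 972 against 861 CPM. In the same ranges of macrophage part it was at 992, 883 and 937 CPM in Olaparib + LLY-283. In Combo it was at 818, 968 and 1070 CPM, where C1q cells had 461 CPM. None of the tested cell cycle genes was over 2-fold from the mix in either library, which is near the share of all genes (3 of 3199 and 13 of 3595).

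The list named nuclear RNA was at 13401 CPM against 14559 CPM in the mix of Olaparib + LLY-283. In Combo it was at 11646 CPM (11505 to 11789) against 14590 CPM, or 0.798 times the mix. Whether every member stays in the nucleus was not tested. Gm42418, annotated as a lincRNA, was its second-highest gene in Olaparib + LLY-283, at 971 against 1028 CPM. Malat1 was at 11725 CPM against 12729 CPM in Olaparib + LLY-283 and at 8839 against 11110 CPM in Combo. Neat1, the scaffold of paraspeckles, was at 475 against 547 CPM and at 565 against 641 CPM. Xist, which coats the inactive X chromosome of female cells, was at 68.5 CPM (57.8 to 80.7) against 78.6 CPM and at 224 CPM (205 to 245) against 232 CPM. It was at 4.31 and 4.02 CPM in keratin cells and at 422 and 565 CPM in C1q cells. Xist UMIs were seen in 73 of 143 and 43 of 46 double-positive cells.

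Other cell types were covered by further marker lists. The T and NK list was at 1.92 CPM (0.522 to 4.91) in Olaparib + LLY-283 and 3.15 CPM (1.27 to 6.48) in Combo, with Cd3d, Cd3g, Cd8a, Ncr1 and Klrb1c at 0 in both. The endothelial list was at 19.7 and 10.8 CPM, with Egfl7 its highest gene at 8.63 and 4.05 CPM and Tie1 at 0 in both. The muscle list was at 19.2 and 14.4 CPM, with Acta1 its highest gene at 8.63 and 5.84 CPM. Of the erythrocyte list only Hbb-bt had a UMI, at 0.479 CPM in Olaparib + LLY-283. The neutrophil list was at 359 against 379 CPM in the mix and at 552 against 490 CPM in Combo, led by S100a9 at 163 and 245 CPM. The fibroblast list was at 2736 against 2279 CPM and at 1921 against 1727 CPM, led by Col1a2 at 1528 and 1099 CPM. Keratin cells expressed the same collagen, at 1547 and 1541 CPM. The osteoclast list was at 272 CPM (250 to 296) against 162 CPM in the mix of Olaparib + LLY-283 and at 251 against 239 CPM in Combo.

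**Figure D4:**
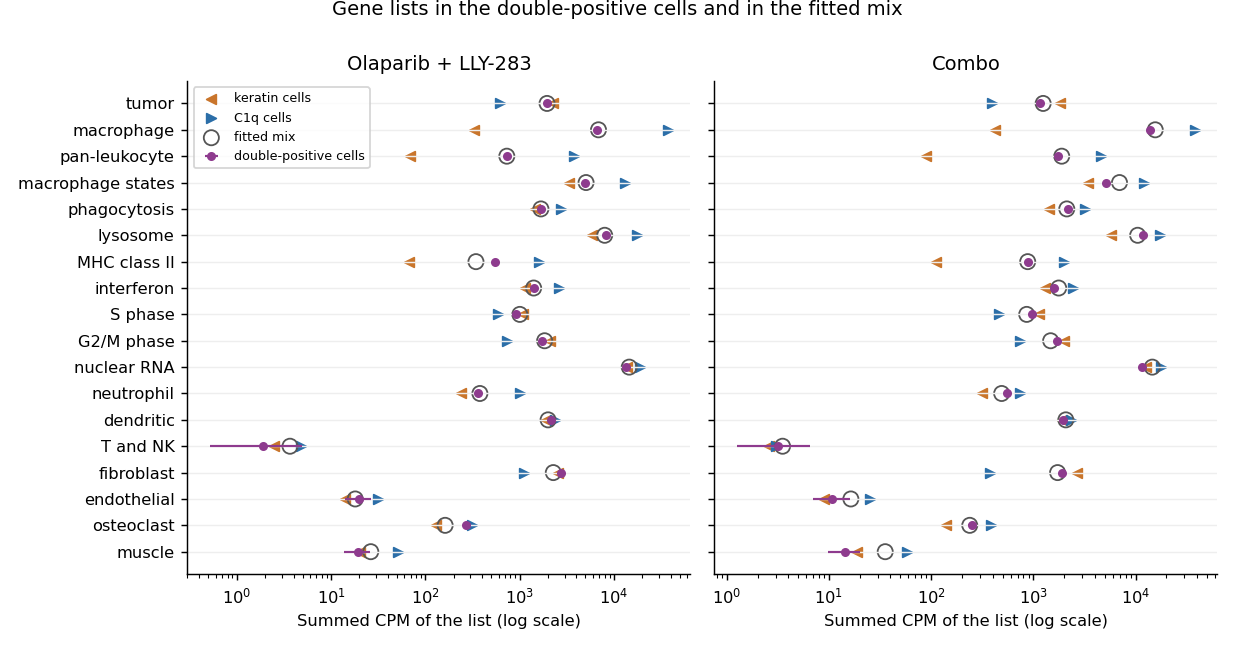
Summed CPM (log axis) of each gene list in double-positive cells (purple, with 95% Poisson intervals), in the fitted mix (open circles), in keratin cells (orange) and in C1q cells (blue), in each library. Most purple points lie inside the circles, and MHC class II and osteoclast genes lie to the right of them in Olaparib + LLY-283.

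The genes farthest above the mix came from few cells. In Olaparib + LLY-283, Ctsk, the collagen-degrading protease of osteoclasts, was at 70.9 CPM (59.97 to 83.3) against 6.36 CPM, and 5 of the 13 cells with a UMI held 91.9% of its UMIs. Cxcl9, a chemokine induced by interferon gamma, was at 57.5 CPM (47.7 to 68.8) against 7.75 CPM, with 90.8% in 5 of 11 cells. H2-Aa was the third gene over 2-fold, followed by H2-Ea-ps at 57.0 against 30.6 CPM and by H2-Eb1. H2-Ea-ps is annotated as a polymorphic pseudogene and may share reads with its relatives. Farthest below the mix were Mmp12, the macrophage elastase, at 44.1 against 83.1 CPM, Ccl3, a chemokine, at 63.7 against 108 CPM, Asns, the asparagine synthetase, at 64.7 against 91.6 CPM, Cd14, a lipopolysaccharide co-receptor, at 134 against 188 CPM, and Dnajc9, a co-chaperone, at 42.7 against 59.7 CPM. Of the UMIs of these genes below the mix, 17.8 to 37.0% lay in 5 cells, against 63.4 to 91.9% for the 5 genes above it.

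In Combo the 110 UMIs of Retnla, a marker of alternatively activated macrophages, all came from 1 cell, and Retnla was at 0 in the double-positive cells of Olaparib + LLY-283. Lyve1, a hyaluronan receptor of resident macrophages, was at 410.5 CPM (384 to 438) against 169 CPM in the mix and came from 17 of 46 cells. Fcna, a ficolin, was at 70.6 against 25.6 CPM, Stard8 at 76.4 against 28.1 CPM, and Ednrb, an endothelin receptor, at 201 against 81.5 CPM. Between 61.1 and 87.2% of the UMIs of these 4 genes lay in 5 cells. Farthest below the mix were Cxcl10, a chemokine, at 13.5 CPM (9.10 to 19.3) against 66.0 CPM, Rsad2, an antiviral enzyme, at 21.1 against 59.8 CPM, Fcrls, a receptor of macrophages, at 26.5 against 66.9 CPM, Cxcl14, a chemokine, at 31.5 against 70.9 CPM, and Gpr183, an oxysterol receptor, at 27.0 against 60.6 CPM. Of the UMIs of these genes below the mix, 33.3 to 86.7% lay in 5 cells, a range that overlapped that of the genes above it. Interferon-induced Cxcl10 and Rsad2 had UMIs in 9 and 13 cells of Combo. In Olaparib + LLY-283, on under 100 UMIs each, Rsad2 was at 21.1 against 43.2 CPM in the mix and Cxcl10 at 17.7 against 28.2 CPM, so both lay below the mix in both libraries.

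Between the libraries, 272 of 5458 genes (4.98%) were over 2-fold higher in the double-positive cells of Combo and 46 (0.843%) over 2-fold lower. The 318 genes became 67 of 3455 with keratin at 0.05% of UMIs or more, 188 of 4408 with C1q at 0.1% or more and 551 of 3181 without the cells Scrublet called. Of the macrophage list 17 of 20 genes were over 2-fold higher and 0 lower, and of the pan-leukocyte list 9 of 10 were higher. The median log2 ratio was 1.24 for the macrophage list and 1.35 for the pan-leukocyte list, against 0.05 over all genes compared. Between the mixes of the same libraries the medians were 1.24 and 1.41. Genes of both lists helped to set the weights of the mixes, so this likeness is partly fixed by the fit. Within the C1q cells the macrophage list had a median of 0.11. Of the 272 genes, 271 were also higher in the mix of Combo and 191 of them over 2-fold. Of the 46 lower genes, 45 were also lower in the mix of Combo but only 5 of them over 2-fold, with a median log2 ratio of -1.18 against -0.67 between the mixes. The osteoclast list had a median of -0.71 against 0.77 between the mixes, over 3 genes compared. Of these, 1 was over 2-fold higher and 1 over 2-fold lower in Combo. MHC class II had a median of 0.68 against 1.37, over 5 genes. In all, 21 of the 5458 genes were over 2-fold from the ratio of the mixes. When only cells with a macrophage part between 10 and 50% were taken, a limit chosen after the data were seen, 22 of 3995 genes were over 2-fold higher and 16 lower.

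Among the 5 genes with the largest ratios in favor of Combo, Lyve1 was at 39.3 CPM (31.3 to 48.8) in Olaparib + LLY-283 and 410.5 CPM in Combo, a fold of 10.4, where C1q cells had 184 and 414 CPM. Stard8 was at 10.1 and 76.4 CPM. Hal, the histidine ammonia-lyase, was at 36.4 and 227 CPM. Cbr2, a carbonyl reductase, was at 39.8 and 243 CPM. Retnla was at least 34.4-fold higher against a floor of 3 UMIs over the group, but in 1 cell. In the other direction Ctsk was at 70.9 CPM in Olaparib + LLY-283 and 6.29 CPM in Combo. Angptl4, an inhibitor of lipoprotein lipase, was at 49.8 and 16.6 CPM, Ptx3, a pentraxin that binds C1q, at 39.3 and 14.4 CPM, and Epb41l4a, a protein of the membrane skeleton, at 35.9 and 11.7 CPM. AC161119.1, annotated as antisense and therefore uncertain in its counts, was at 44.1 and 10.8 CPM. Keratin cells had Angptl4 at 56.8 and 50.1 CPM, and the C1q cells at 15.9 and 7.24 CPM.

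Droplets that met the keratin rule with another list were counted the same way. As a common scale, each count was divided by the product of both shares and the number of cells, which was 286 for C1q in Olaparib + LLY-283 and 126 in Combo. The shares are those of cells with 5 or more keratin UMIs and of cells with the other list at 0.2% of UMIs or more and at most 2 keratin UMIs (556 and 269 C1q cells), while the count uses a limit of 0.05%. The product is therefore neither the number under independence nor a number of expected doublets, and nothing is read from the distance to 1. The counts of double-positive cells were 0.500 times that product (0.422 to 0.589) and 0.366 times (0.268 to 0.487). The order of the libraries turned with the C1q limit and with the doublet calls. The ratios were 0.308 and 0.334 at C1q of 0.1% or more, 0.452 and 0.157 at keratin of 0.05% or more, 0.562 and 0.0591 after thinning and 0.0395 and 0.335 without the cells Scrublet called. For the neutrophil list the ratio was 0.95 (0.864 to 1.04) in Olaparib + LLY-283, with 441 cells, and 0.154 (0.126 to 0.185) in Combo, with 107 cells. For MHC class II it was 0.512 and 0.367, for the osteoclast list 0.668 and 0.372 and for the muscle list 0.519 and 0.0904. For T and NK genes it was 0.0452 (0.00114 to 0.252), with 1 cell, and 0 in Combo, where the interval reached 0.219. In Olaparib + LLY-283 the interval for C1q overlapped those of the MHC class II, osteoclast, endothelial and muscle lists.

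**Figure D5:**
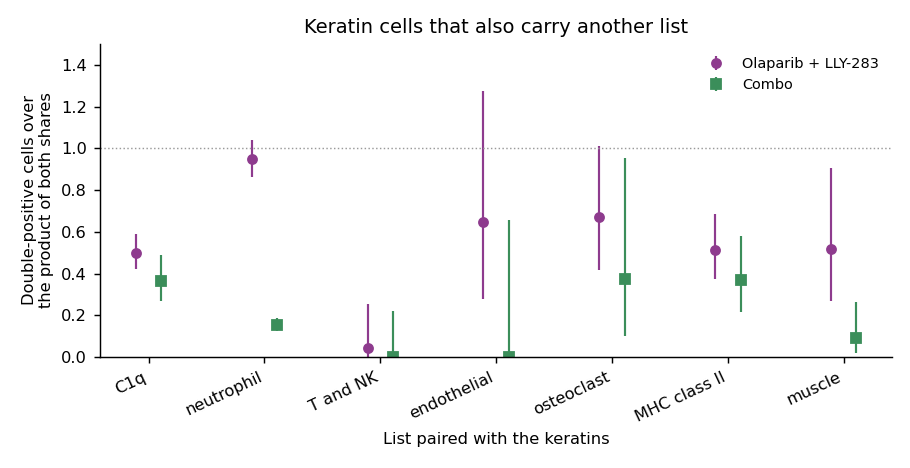
Number of cells with keratin and another list, divided by the product of both shares and the number of cells, for each list and library, with exact 95% intervals. The dotted line marks a ratio of 1, which is not the expected number of doublets. The ratio for C1q is 0.500 in Olaparib + LLY-283 and 0.366 in Combo.

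Some double-positive cells carried a further list. Of the 143 cells of Olaparib + LLY-283, 6 (4.20%) also met the rule for the osteoclast list, against 0.198% of keratin cells and 0.360% of C1q cells. The neutrophil list was met by 14 (9.79%), against 5.27% and 4.86%, and MHC class II by 12 (8.39%), against 0.407% and 8.63%. In Combo the counts were 0 of 46 for the osteoclast list, against 0.146% of keratin cells and 2.60% of C1q cells, 6 (13.0%) for the neutrophil list, against 3.7% of keratin cells and 12.6% of C1q cells, and 5 (10.9%) for MHC class II, against 0.475% and 14.1%. No double-positive cell met the rule for T and NK, endothelial or muscle genes in either library.

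Scrublet, which scores each cell by its likeness to sums of cells of its own library, called 133 of the 143 double-positive cells doublets in Olaparib + LLY-283 (93.0%, 87.5 to 96.6), against 16.8% of keratin cells and 7.73% of C1q cells. In Combo it called 4 of 46 (8.70%, 2.42 to 20.8), against 1.02% and 0%. Its limits differed, at a score of 0.2 in Olaparib + LLY-283 and 0.287 in Combo, and it called 14.7% and 0.789% of all cells. These calls came from log-transformed counts. Its default called 0 cells in both libraries, so the shares called rest on that choice. The median score of the double-positive cells was 0.400 in Olaparib + LLY-283 against 0.0705 for all cells that passed, and 0.206 in Combo against 0.0218. Within Combo the score followed the macrophage part, with a median of 0.258 in the cells between 10 and 50% and 0.0274 in those at 90% or more. Without the called cells, 10 double-positive cells remained in Olaparib + LLY-283, with a median macrophage part of 2.15%, and 42 in Combo. Whether the cells are doublets, macrophages with tumor RNA or cells with captured free RNA was not tested by a measurement independent of these counts.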

How the data were processed

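Single-cell RNA sequencing libraries (10× Genomics 3′ kit) of 2 groups were analysed, 1 library each. The authors deposited a matrix of UMI counts per gene and cell, as whole numbers. The paper's methods name Cell Ranger for the counting and mm10 as the reference. The matrix header names Cell Ranger 6.1.2, and the submitters' processing notes also list bcl2fastq 5.0.1 and Seurat 4.1.0. The paper gives later versions of Cell Ranger and of Seurat than these. All 55450 gene identifiers were found in GENCODE M21, from which positions were taken.

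A cell was kept from 200 genes on, if under 20% of its UMIs were mitochondrial. CPM are UMIs summed over a group of cells scaled to the UMIs of the group; 1 CPM is 1 count per 1000000. Profiles had 0.5 UMIs added per gene. The macrophage part was the maximum-likelihood weight on a grid of 0.001, over genes that differed over 4-fold with at least 50 CPM in the higher profile. Genes compared had at least 100 UMIs, and over 2-fold either way was called. No test was made. Doublets were not removed. Scrublet (scanpy 1.11.5, 0.8% expected per 1000 cells) was run per library. Log-transformed counts were used because its default called 0 cells in both. The procedure was tested on simulated data.

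Members and gene lists were chosen with earlier results of these data known. The named genes were the rule genes, in each list some of the 4 members with the highest CPM in double-positive cells and defining members at 0, and the 5 genes with the largest ratio each way against the mix and between libraries; Epcam, Ptprc, Csf1r, Itgax and Xist were taken from the lists outside that order. Alternatives changed the cell filter, both limits of the rule, the doublet calls, the comparison cells, the gene filter, the added UMIs and the depth. The scripts ran in Python 3.11.15 with scipy 1.17.1, numpy 2.4.6, matplotlib 3.10.9 and pandas 2.3.3.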

Additional observations from a re-analysis of the deposited data

How the results depend on the processing

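Over the alternatives, 38 values stayed within the counting interval of the value reported, or within 1.5 times for a count of genes, and 27 moved further. With C1q at 0.1% of UMIs or more, Olaparib + LLY-283 had 0.549% double-positive cells, a median macrophage part of 22.25%, 1 gene over 2-fold from the mix and 0.308 times the product of both shares, Combo had 21 genes over 2-fold from the mix, and 188 genes were over 2-fold between libraries. With keratin at 0.05% of UMIs or more, the share was 0.730% in Olaparib + LLY-283 and 0.235% in Combo, where the depth was 1.01 times the summed pairs, the macrophage part 19.45% and the ratio to the product 0.157, and 67 genes were over 2-fold between libraries. With Scrublet calls removed, Olaparib + LLY-283 had a share of 0.0732%, a depth of 0.392 times the summed pairs, a macrophage part of 2.15%, 0 of 154 genes over 2-fold from the mix and 0.0395 times the product, Combo had 20 such genes, and 551 genes were over 2-fold between libraries. With genes of at least 20 UMIs, 35 genes in Olaparib + LLY-283 and 92 in Combo were over 2-fold from the mix and 962 between libraries. With every cell thinned to 3000 UMIs, where 5 keratin UMIs are a stricter limit by construction, the shares were 0.169% and 0.0597%, and Combo had 0.0591 times the product. With only cells at a macrophage part of 10 to 50%, added after the data were seen, 5 genes in Combo were over 2-fold from the mix and 38 between libraries. Beyond the changes of the rule or the cells named, the cause was not tested.

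A mitochondrial limit of 10%, keratin cells with at most 2 C1q UMIs, the macrophage list alone for the macrophage part and 5 UMIs added moved no value beyond these limits. No paired analysis was possible because each group has 1 library. The Combo library has 46 double-positive cells, and the limit of 5 keratin UMIs is a smaller share of its deeper cells.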
